A study of Homo sapiens with 25 samples.

Results

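The RNA of HEC-1A cells kept in 20 µM THC for 72 h was compared with that of cells kept in 20 µM THC for 24 h. HEC-1A is an established epithelial line from a human endometrial adenocarcinoma, and THC (tetrahydrocannabinol) is the main psychoactive compound of cannabis. There were 3 RNA libraries at 72 h, 3 at 24 h and 3 from untreated cells, which served to define the early response. All 9 came from the same line, so they speak for 1 line only. No time is given for the untreated libraries, and hours of culture and hours of THC cannot be told apart. The labels call the replicates biological but do not say whether they were separate cultures, so the p-values reflect variation among these libraries, which may be in part technical. Of 60179 genes in the table, 13664 had a mean of at least 1 TPM (a share of the library's transcripts, corrected for their length) over the 6 THC libraries and were analysed. The lowest mean kept was 1.00 TPM and the highest left out was 0.999 TPM.

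Cells meet a lasting chemical insult in layers. Kinases that sense misfolded protein, viral-like RNA or lack of amino acids phosphorylate eIF2α, which slows translation and favours ATF4, and ATF4 with its partner CHOP (gene DDIT3) then drives genes for amino acid supply and for protein folding. Interferon signalling acts through STAT and IRF factors, with antiviral genes such as ISG15 and the IFIT family among its fast targets and the peptide-loading genes of MHC class I among those that also answer IRF1 and NLRC5. In the endometrium, an epithelium that is remodelled in every cycle, actin filaments and the YAP and TEAD factors couple cell shape to growth.

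Each change below is a difference of means on the log2(TPM + 1) scale, 72 h minus 24 h unless another pair is named, and it understates the change of genes with few TPM. A gene was called at a limma adjusted p of 0.05 over all 13664 genes. The depth behind each value is unknown, as TPM does not retain it. Replicates of a group correlated at 0.989 to 0.995 (Pearson's r across genes, which are not independent), and between 22915 and 24581 genes were above 0 per library. The epithelial label held: the keratins KRT7, KRT8, KRT18 and KRT19 summed to 2890 ± 143 TPM at 72 h and 3920 ± 46.4 TPM at 24 h (SD, n = 3 each). Of 14 immune markers 12 stayed below 1 TPM in every group and 5 were at 0 in all 9 libraries. Of 12 stromal markers 9 stayed below 1 TPM and 2 were at 0 in all 9 libraries; the exceptions were ACTA2 (2.76 TPM at 72 h, 3.21 TPM at 24 h and 5.61 TPM in untreated cells), and COL1A1 and THY1, which passed 1 TPM in untreated cells only. All 10 endothelial markers stayed below 1 TPM.

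The promoters below belong to genes of the gene groups that the results turn on, and show letters they carry near the transcription start (RefSeq, GRCh38.p14). The motifs were chosen with results known and searched on both strands, and overlapping matches count as 1 gene. The first set holds in capitals the interferon-stimulated response element, read as GAAA, any 2 bases and GAAA again. ISG15 and IFIT1 are early genes whose level came back down, IFNL1 encodes an interferon ligand, and TAP1 encodes a subunit of the MHC class I peptide pump. The 80-base windows place ISG15 at chr1:1013352-1013431 on the plus strand, IFIT1 at chr10:89392478-89392557 on the plus strand, IFNL1 at chr19:39296161-39296240 on the plus strand and TAP1 at chr6:32853791-32853870 on the minus strand. In IFIT1, IFNL1 and TAP1 the match reads along the opposite strand.
ISG15: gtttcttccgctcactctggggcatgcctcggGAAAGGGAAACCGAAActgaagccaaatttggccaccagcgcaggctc
IFIT1: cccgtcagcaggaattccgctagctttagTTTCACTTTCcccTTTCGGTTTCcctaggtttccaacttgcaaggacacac
IFNL1: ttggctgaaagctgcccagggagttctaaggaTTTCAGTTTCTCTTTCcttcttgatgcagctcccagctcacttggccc
TAP1: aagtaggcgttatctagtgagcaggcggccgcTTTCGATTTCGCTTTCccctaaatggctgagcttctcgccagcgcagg

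Such letters occurred in 18 of 24 interferon-stimulated genes with a promoter sequence and in 6 of 11 MHC class I genes, against 260 of 10001 tested genes with one, or 2.6%. The second set holds, in capitals, the letters TGATGNAA of the ATF4 and CHOP composite element, found in 2 of 16 integrated stress response factors (ATF3 and CHAC1), 6 of 16 cytosolic tRNA synthetases, 3 of 12 amino acid transporters, 3 of 9 amino acid synthesis genes and 161 of the 10001 genes, or 1.61%. The stress factor ATF3, the glutathione-degrading enzyme CHAC1 and the isoleucyl-tRNA synthetase IARS1 are shown, with ATF3 at chr1:212565180-212565259 on the plus strand, CHAC1 at chr15:40953226-40953305 on the plus strand and IARS1 at chr9:92293667-92293746 on the minus strand. The third set shows the CArG box, the site of serum response factor, in the actin gene ACTG1, with ACTG1 at chr17:81512849-81512928 on the minus strand, and in tropomyosin TPM4, with TPM4 at chr19:16067330-16067409 on the plus strand. The box was found in 5 of 31 genes of an actin list assembled after the genes' values were seen, in 1 of 17 AP-1 and immediate early genes and in 103 of the 10001 genes, or 1.03%. In CHAC1 and IARS1 the match reads along the opposite strand. The ISG15 window also holds a CArG box that does not overlap its capitals. A match describes letters only and shows no binding.
ATF3: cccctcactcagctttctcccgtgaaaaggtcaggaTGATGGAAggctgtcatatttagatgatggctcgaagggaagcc
CHAC1: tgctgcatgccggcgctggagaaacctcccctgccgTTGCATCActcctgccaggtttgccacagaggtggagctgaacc
IARS1: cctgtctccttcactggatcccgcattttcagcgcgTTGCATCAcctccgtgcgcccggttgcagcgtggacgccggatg
ACTG1: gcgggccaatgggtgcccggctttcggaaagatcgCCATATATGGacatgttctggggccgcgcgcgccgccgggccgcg
TPM4: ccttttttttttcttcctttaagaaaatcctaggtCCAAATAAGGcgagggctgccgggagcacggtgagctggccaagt

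Between 24 h and 72 h the transcriptome moved broadly. Of the 13664 genes, 7518 were higher (55.0%) and 2438 lower (17.8%) at 72 h, and of these 1234 were at least 2-fold higher (9.03%) and 273 at least 2-fold lower (2.00%). In all, 72.9% were called. The median gene moved by 0.26, and after each library was centred on the median of its genes 4188 were higher (30.6%) and 5173 lower (37.9%), with 3.51% and 4.27% past 2-fold, so that 44.7% of calls were higher against 75.5% as deposited. Without a test, all 72 h libraries lay above all 24 h libraries for 55.5% of genes and below them for 18.5%. Changes are given as deposited, with counts after centring beside them. The median change varied with abundance, being 0.48 for genes of 1 to 3 TPM, -0.05 for genes of 100 to 1000 TPM and 0.09 for genes of 1000 TPM and over.

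Early responses were sorted by what was left of them at 72 h. At 24 h against untreated cells 25.6% of genes were higher and 50.4% lower, and at 72 h against untreated cells 41.2% and 32.0%, or 8.39% and 5.01% at 2-fold. Of the 741 genes at least 2-fold higher at 24 h than in untreated cells (5.42%), 202 had faded to 0.5 or less of their log2 change at 72 h, 495 persisted and 44 had grown to at least 1.5 times. Of the 1365 genes at least 2-fold lower at 24 h (9.99%), 635 had faded, 696 persisted and 34 had grown. The faded genes include 10 rises and 67 falls that were called on the other side of untreated at 72 h. A further 388 rises and 78 falls appeared late, with a change under 0.5 at 24 h. The early comparison shares its libraries with these classes, so the counts are descriptions, and centring changed them: of 1119 early rises 424 had faded, of 769 early falls 216 had faded, and 217 rises and 175 falls were late.

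**Figure D1:**
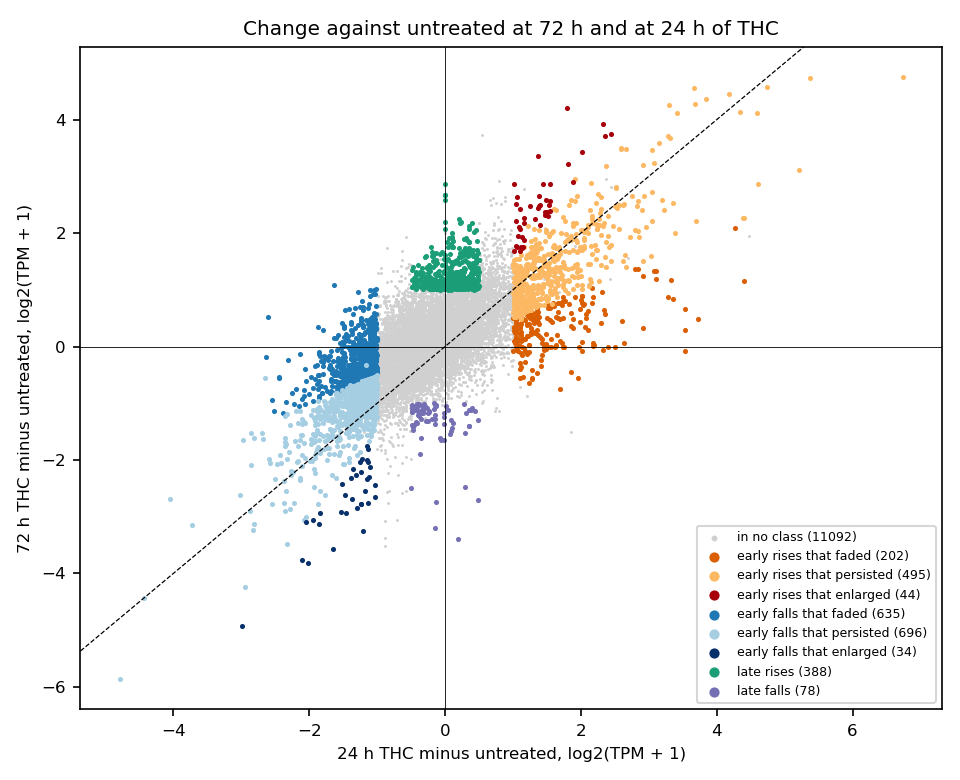
Change against untreated cells at 72 h (vertical axis) and at 24 h of THC (horizontal axis), both in log2(TPM + 1), for the 13664 tested genes, 1 point a gene, coloured by class with its count in the key. The dashed line marks equal change; the 635 falls that faded sit above it on the left and the 202 rises that faded below it on the right.

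Most interferon-stimulated and chemokine genes tested were lower at 72 h. IFNL1, a type III interferon, had 0.945, 0.859 and 1.43 TPM at 72 h, against 21.5, 16.5 and 18.4 TPM at 24 h and a mean of 0.499 TPM in untreated cells. The lowest 24 h library lies above every 72 h library, a change of -3.25 ± 0.163 (SE, adjusted p = 1.32e-07). ISG15, a ubiquitin-like protein, stood at 154, 124 and 128 TPM at 72 h, against 1090, 599 and 805 TPM at 24 h and 129 ± 10.9 TPM in untreated cells, and its difference from untreated at 72 h was 0.07 and was not called (adjusted p = 0.752). IFIT1, which binds foreign RNA, had 17.1, 18 and 16.7 TPM at 72 h, against 97.5, 101 and 95.2 TPM at 24 h, and its 72 h level lay below the untreated 29.6 ± 0.468 TPM.

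Of 27 tested interferon-stimulated genes 6 were higher and 18 lower at 72 h (3 and 19 after centring), with a median of -0.47 against 0.26 for all genes, and 9 of the 18 were at least 2-fold lower. RSAD2, the antiviral enzyme viperin, kept more of its rise, with 62.6, 63.5 and 62.6 TPM at 72 h, against 283, 272 and 280 TPM at 24 h and 12.3 TPM in untreated cells. The exceptions on the other side were led by DTX3L (1.04) and PARP9 (0.90), partner proteins in ADP-ribosylation and DNA repair, which were below untreated at 24 h. The list of interferon ligands, receptors and sensors, which holds IFNL1, had 11 of 15 genes higher and 4 lower (8 and 4 after centring) and a median of 0.51. The RNA sensor gene RIGI was among the 4 and fell by 0.79.

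Secreted signals went the same way. Of 16 chemokine and cytokine genes 5 were higher and 10 lower (3 and 11 after centring). CCL5, which attracts T cells, had 4.56, 5.2 and 5.56 TPM at 72 h, against 60.1, 56.3 and 54.2 TPM at 24 h (-3.25 ± 0.104, adjusted p = 1.36e-08). CCL3 fell by 2.60, and TNFSF15, a TNF-family ligand, by 2.15; CCL3L3, a near-identical copy of CCL3, is uncertain. CD68, a lysosomal protein common in macrophages, was at 29.1, 30.0 and 39.4 TPM at 72 h, against 127, 137 and 133 TPM at 24 h, while the other 13 immune markers together summed to 2.12 ± 0.313 TPM at 72 h and 1.60 ± 0.226 TPM at 24 h, with PTPRC, the common leukocyte antigen, at 0.00223 TPM at 72 h and 0 at 24 h. Because the RNA is from bulk cells, fewer cells of a type and less RNA per cell cannot be told apart.

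MHC class I genes were higher at 72 h. PSMB9, an immunoproteasome subunit, had 98.7, 94.2 and 91.2 TPM at 72 h, against 30.2, 25.1 and 30.0 TPM at 24 h and 29.8 ± 1.29 TPM in untreated cells (1.71 ± 0.0717, adjusted p = 5.45e-08). TAP1, the peptide pump, had 111, 105 and 107 TPM at 72 h, against 36.2, 36.5 and 36.1 TPM at 24 h (1.54 ± 0.0469, adjusted p = 1.02e-08). HLA-B, a class I heavy chain, had 352, 343 and 321 TPM at 72 h, against 129, 125 and 139 TPM at 24 h. HLA-B and HLA-C are close relatives whose reads can be split between them, so their levels are uncertain. For PSMB9, TAP1 and HLA-B the 72 h libraries lie above all others, and the 24 h means lie within 0.5 of the untreated ones on the log2 scale.

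**Figure D2:**
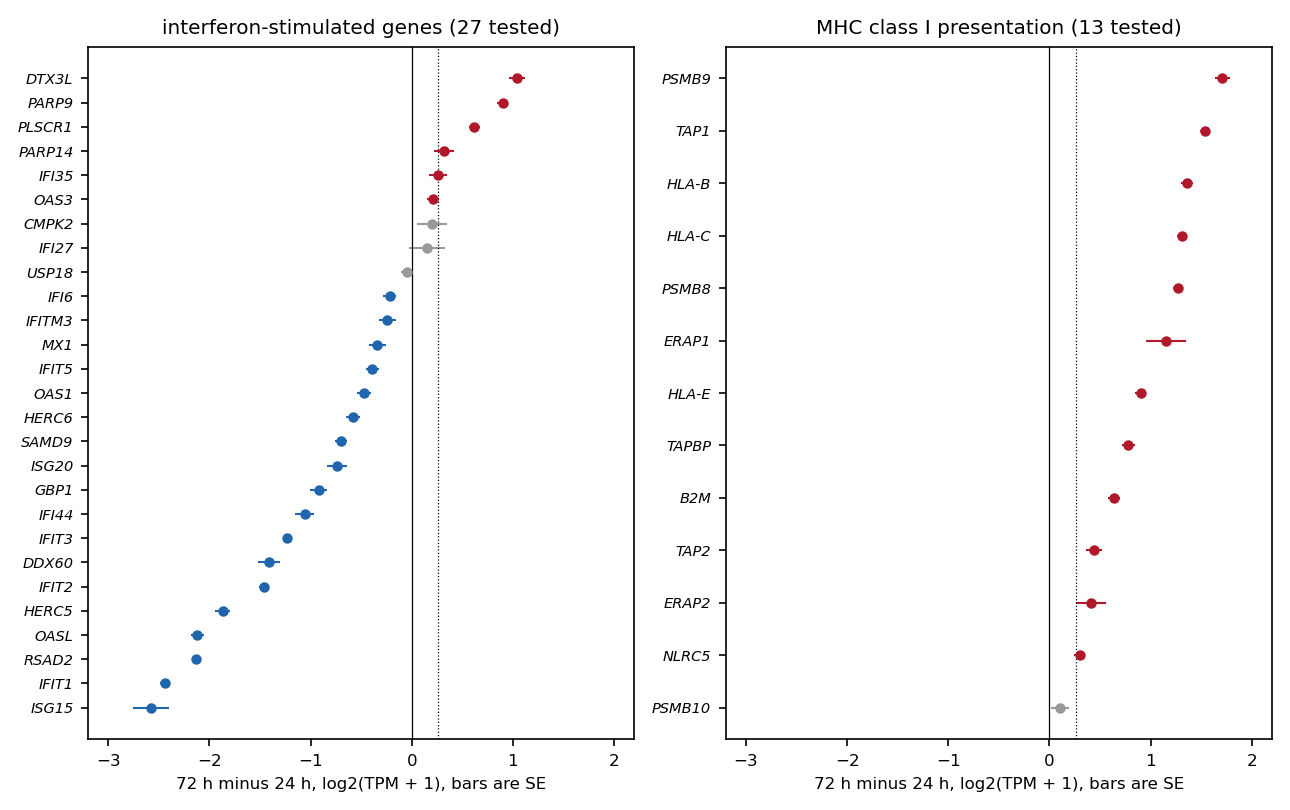
Change in log2(TPM + 1), 72 h minus 24 h of THC, for the 27 tested interferon-stimulated genes (left) and the 13 tested MHC class I genes (right), with SE bars; red was called higher, blue lower and grey not called, and the dotted line is the median of all tested genes (0.26). Most points on the left lie below 0 and all on the right above it.

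Of 13 MHC class I genes 12 were higher and 0 lower at 72 h (9 and 0 after centring), with a median of 0.90 against 0.26 for all genes. The heavy chain HLA-C rose by 1.31, the proteasome subunit PSMB8 by 1.27 and the light chain B2M by 0.64, and PSMB10 (0.10, adjusted p = 0.355; -0.21 after centring) was not called. IRF1, a transcription factor that acts on this set, had 32.2, 31.0 and 28.5 TPM at 72 h, against 13.2, 12.4 and 11.4 TPM at 24 h (1.24 ± 0.0752, adjusted p = 3.7e-07). The double-stranded RNA receptor TLR3 rose by 1.56 and the DNA sensor IFI16 by 1.97.

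DDIT3 and ATF3 stayed high, and most amino acid transporters were higher at 72 h than at 24 h. DDIT3 had 465, 482 and 497 TPM at 72 h, against 646, 711 and 662 TPM at 24 h and a mean of 26.8 TPM in untreated cells. It fell by 0.48 but was still 4.12 above untreated. ATF3, a stress transcription factor, had 59.5, 60.6 and 50.2 TPM at 72 h, against 59.9, 62.8 and 67.7 TPM at 24 h, a difference that was not called (-0.16, adjusted p = 0.0828). After centring ATF3 was called lower (-0.46). ATF5, a related factor, was at 58.0, 52.2 and 52.2 TPM at 72 h, against 14.4, 11.1 and 12.6 TPM at 24 h, while untreated cells had 33.3 TPM, so it had dipped before it rose.

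Among 18 integrated stress response factors 6 were higher and 5 lower (5 and 11 after centring), with a median of -0.06. HMOX1, which degrades haem, rose by 0.60, and CDKN1A, the cell cycle inhibitor p21, fell by 0.64 with 4.74 of its change against untreated left. Of 13 amino acid transporters 11 were higher and 1 lower (9 and 2 after centring), with a median of 0.53. SLC1A4, a neutral amino acid transporter, had 28.0, 28.0 and 29.4 TPM at 72 h, against 7.38, 7.35 and 6.63 TPM at 24 h (1.86 ± 0.0814, adjusted p = 6.45e-08). SLC6A9, the glycine transporter, rose by 1.35, SLC38A2, which had been below untreated at 24 h, by 1.23, and SLC7A5 fell by 0.37. Of the 13 transporters 10 were higher and 2 lower than untreated at 24 h, and 13 were higher at 72 h. CHAC1 rose by 1.28 and IARS1 by 0.62, and of 20 cytosolic tRNA synthetases 7 were higher and 8 lower (1 and 13 after centring).

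Of protein folding genes in the endoplasmic reticulum, 12 of 17 chaperone genes were higher and 1 lower (7 and 6 after centring), led by CRELD2 (1.15) and the stress chaperone HYOU1 (0.77), and 12 of 16 genes for degradation from the reticulum and its stress sensors were higher and 1 lower (7 and 4 after centring), led by SYVN1, a ubiquitin ligase (1.10). HSPA5, the chief chaperone of that organelle, was not called at -0.09 (called lower after centring, -0.39), with 879 TPM at 72 h, 936 TPM at 24 h and 217 TPM in untreated cells. Of 22 cytosolic and mitochondrial heat shock chaperones 4 were higher and 11 lower (1 and 16 after centring), and DNAJA1 rose by 0.75. The difference between the folding lists was not tested. HSP90AB1 had 1020, 1070 and 1040 TPM at 72 h, against 1960, 2090 and 2060 TPM at 24 h, and HSPD1, the mitochondrial chaperonin, fell by 0.90.

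DNA replication genes, all but 1 of them lower than untreated at 24 h, came part of the way back. PCNA, the sliding clamp, had 150, 142 and 127 TPM at 72 h, against 43.6, 45.6 and 46.6 TPM at 24 h and 268 ± 11.5 TPM in untreated cells (1.60 ± 0.0622, adjusted p = 3.8e-08). Of 38 genes 28 were higher and 1 lower (21 and 7 after centring), with a median of 0.50, and 35 were still lower than untreated. The flap endonuclease FEN1 rose by 1.21 and the cyclin CCNE2 by 1.57, and 14 of 16 DNA repair genes were higher and 0 lower (6 and 2 after centring). Of 40 mitosis genes 21 were higher and 3 lower, but 11 and 18 after centring. As deposited 52.5% were higher, near the 55.0% of all tested genes, and 7.5% lower against 17.8%. The proliferation marker MKI67 was not called at 0.09 (adjusted p = 0.113; -0.21 and called lower after centring) with 41.2 TPM at 72 h, 38.7 TPM at 24 h and 133 TPM in untreated cells. CDC20, an activator of the anaphase complex, fell by 0.90.

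The series' title names ARID1A, a chromatin remodeller subunit often lost in endometrial cancer. ARID1A had 32.9, 32.3 and 36.1 TPM at 72 h, against 20.1, 17.6 and 18.2 TPM at 24 h and 51.2 ± 1.86 TPM in untreated cells (0.82 ± 0.0635, adjusted p = 1.66e-06). It thus regained part of its loss, as did PHF10 (1.04) and PBRM1 (0.67), while the ATPase SMARCA4 fell by 0.30. Of 26 subunits of the SWI/SNF complex 14 were higher and 5 lower (7 and 12 after centring), or 53.8% and 19.2%, near the 55.0% and 17.8% of all tested genes.

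Lipid genes followed several courses, and the early falls of SCD, FASN and SREBF1 persisted. SCD, which puts the first double bond into saturated fatty acids, had 7.85, 9.25 and 8.66 TPM at 72 h, against 8.59, 8.32 and 8.99 TPM at 24 h and 206 ± 5.87 TPM in untreated cells. Its difference of -0.01 was not called (adjusted p = 0.903), nor were those of FASN at 0.14 (adjusted p = 0.428; -0.16 after centring) and SREBF1 at -0.14 (adjusted p = 0.138), although SCD and SREBF1 were called lower after centring. All 20 cholesterol synthesis genes stayed lower than untreated at 72 h, with 8 higher and 4 lower than at 24 h, but 6 and 10 after centring. Of 18 fatty acid synthesis and desaturation genes 9 were higher and 5 lower (3 and 7 after centring). These are 50.0% and 27.8%, against 55.0% and 17.8% of all tested genes. FADS1, a desaturase of polyunsaturated fatty acids, had 44.9, 43.4 and 47.4 TPM at 72 h, against 20.1, 20.9 and 19.8 TPM at 24 h and 46.1 TPM in untreated cells, so its early fall had faded. After centring FADS1 was in no class. The early fall of the mevalonate kinase MVK was classed as faded as deposited, with a rise of 1.12, but as persisted after centring. MVK had 19.4 TPM at 72 h, 8.42 TPM at 24 h and 33.3 TPM in untreated cells, so it stayed below untreated. HMGCS1 (-0.73), MSMO1 (-0.78) and INSIG1, which restrains SREBP (-1.58), fell further.

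Transcripts of the actin cytoskeleton fell late. ACTB, β-actin, had 1880, 1860 and 2110 TPM at 72 h, against 6980, 5270 and 6100 TPM at 24 h and 6110 ± 181 TPM in untreated cells (-1.64 ± 0.0906, adjusted p = 2.23e-07). The 40 genes of the list, assembled after these genes had been seen among the falls, summed to 20950 ± 153 TPM at 72 h and 37846 ± 1080 TPM at 24 h. ACTB and ACTG1 share sequence with each other and with pseudogenes, and their single levels are uncertain. Of 36 tested members 2 were higher and 28 lower (1 and 32 after centring).

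Genes that answer YAP and TEAD fell as well: of 12 in that list 2 were higher and 8 lower (1 and 10 after centring). CCN1, a matricellular protein, had 21.2, 22.3 and 23.1 TPM at 72 h, against 139, 142 and 141 TPM at 24 h and 155 TPM in untreated cells (-2.61 ± 0.0428, adjusted p = 4.45e-10). ANKRD1 fell by 2.39 after rising at 24 h. Laminins and integrins were higher in 3 and lower in 12 of 17 (1 and 13 after centring), with LAMB1 at -1.51, and epithelial adhesion and keratin genes higher in 1 and lower in 15 of 25 (0 and 21 after centring), with CDH1 at -0.77 (79.9, 76.3 and 73.5 TPM at 72 h, against 130, 132 and 132 TPM at 24 h). In the urokinase and metalloproteinase list 1 of 9 was higher and 7 lower (0 and 8 after centring), among them PLAUR, the urokinase receptor (-2.10), and PLAU (-1.93).

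**Figure D3:**
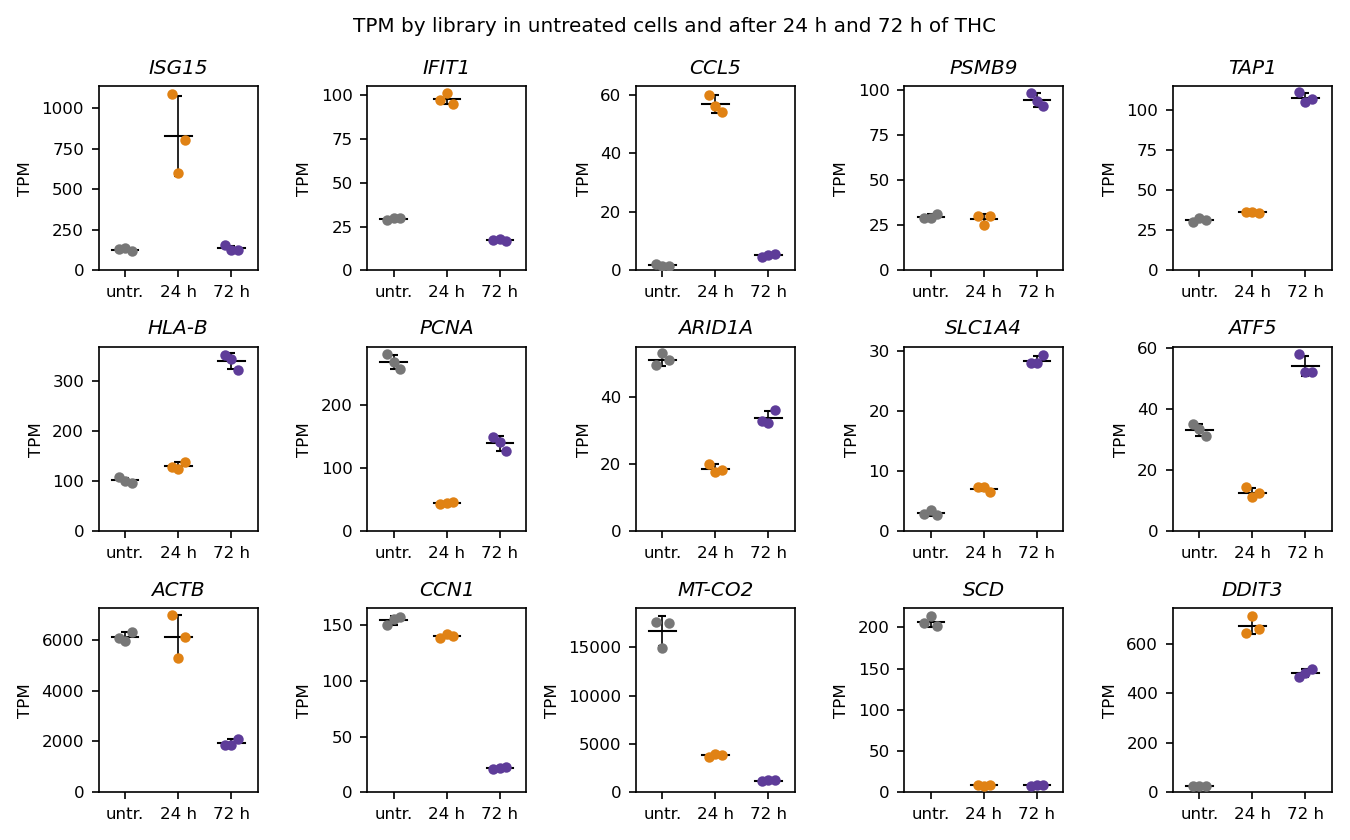
TPM in each library (points) with mean and SD (lines) for 15 genes in untreated cells, at 24 h and at 72 h of THC, the vertical axis of each panel starting at 0. ISG15, IFIT1 and CCL5 peak at 24 h, PSMB9, TAP1 and HLA-B stand high only at 72 h, and ACTB and CCN1 are low only at 72 h.

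Mitochondrially encoded mRNAs fell further. Their sum was 9314, 10975 and 11065 TPM at 72 h, against 27326, 28244 and 28449 TPM at 24 h and a mean of 71247 TPM in untreated cells. Every 72 h library lies below every 24 h one (exact two-sided permutation p = 0.1, the smallest that 3 against 3 can give). All 13 were lower at 72 h than at 24 h, by 1.07 (MT-ND6) to 1.65 (MT-CO2), also after centring. Nuclear copies of these genes exist, and how reads were split is not known. MT-CO2, a subunit of cytochrome c oxidase, had 1140, 1270 and 1270 TPM at 72 h, against 3710, 3970 and 3890 TPM at 24 h and 16700 ± 1510 TPM in untreated cells. The 2 mitochondrial rRNAs summed to 2516 ± 169 TPM at 72 h, 5714 ± 60.5 TPM at 24 h and 2911 ± 78.3 TPM in untreated cells. Of 74 nuclear genes of the respiratory chain and ATP synthase 21 were higher and 20 lower (5 and 48 after centring). Cytosolic ribosomal proteins summed to 198850 ± 2110 TPM at 72 h and 166350 ± 1620 TPM at 24 h, with 51 of 75 higher and 4 lower, though 16 higher and 25 lower after centring. As deposited 68.0% were higher, against 55.0% of all tested genes, and their median of 0.26 was that of all tested genes.

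**Figure D4:**
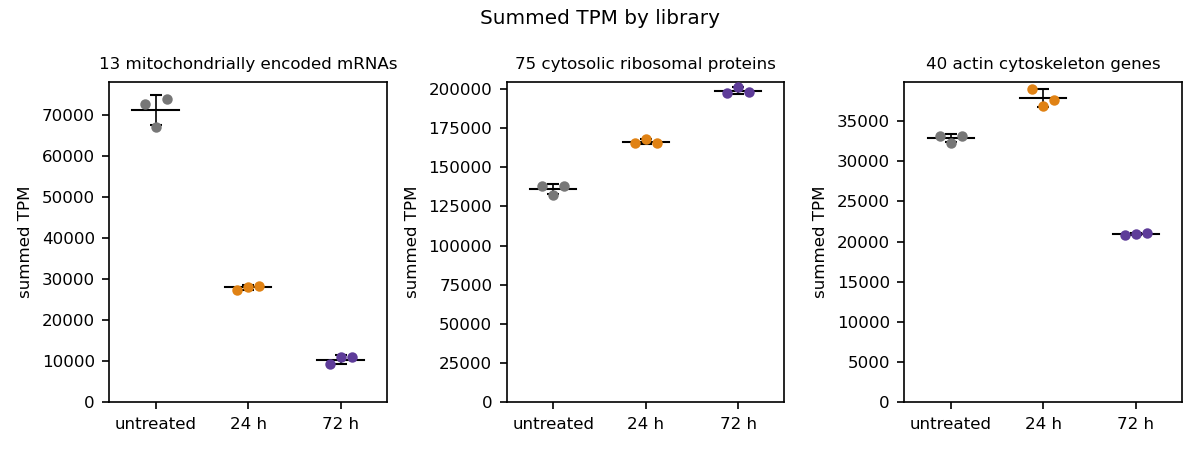
Summed TPM per library (points) with mean and SD (lines) for the mitochondrially encoded mRNAs, the cytosolic ribosomal proteins and the actin cytoskeleton list, in untreated cells, at 24 h and at 72 h of THC. The mitochondrial sum falls at each step, and the actin sum is low at 72 h only.

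In the immediate early list, the fast factors of the AP-1 and EGR families, 7 of 22 were higher and 10 lower (2 and 14 after centring), with EGR1 at -1.39 and ZFP36, which destabilises cytokine mRNA, at -1.48. Hosts of small nucleolar RNAs were all higher than untreated at 24 h, and at 72 h 10 of 14 were lower and 3 higher than at 24 h (11 and 0 after centring), led by SNHG17 (-1.11). The median of these 14 listed hosts was -0.35. Over all 24 tested genes with an SNHG symbol 10 were higher and 9 lower (3 and 11 after centring), with a median of 0.11. Ribosome biogenesis genes were lower in 13 of 28 and higher in 3 (25 and 0 after centring). Glycolysis genes were lower in 12 of 22 and higher in 4 (17 and 2 after centring), with SLC2A1, the glucose transporter, at 110, 108 and 117 TPM at 72 h, against 264, 240 and 250 TPM at 24 h. Autophagy genes were higher in 24 of 32 and lower in 3, but 9 and 9 after centring.

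**Figure D5:**
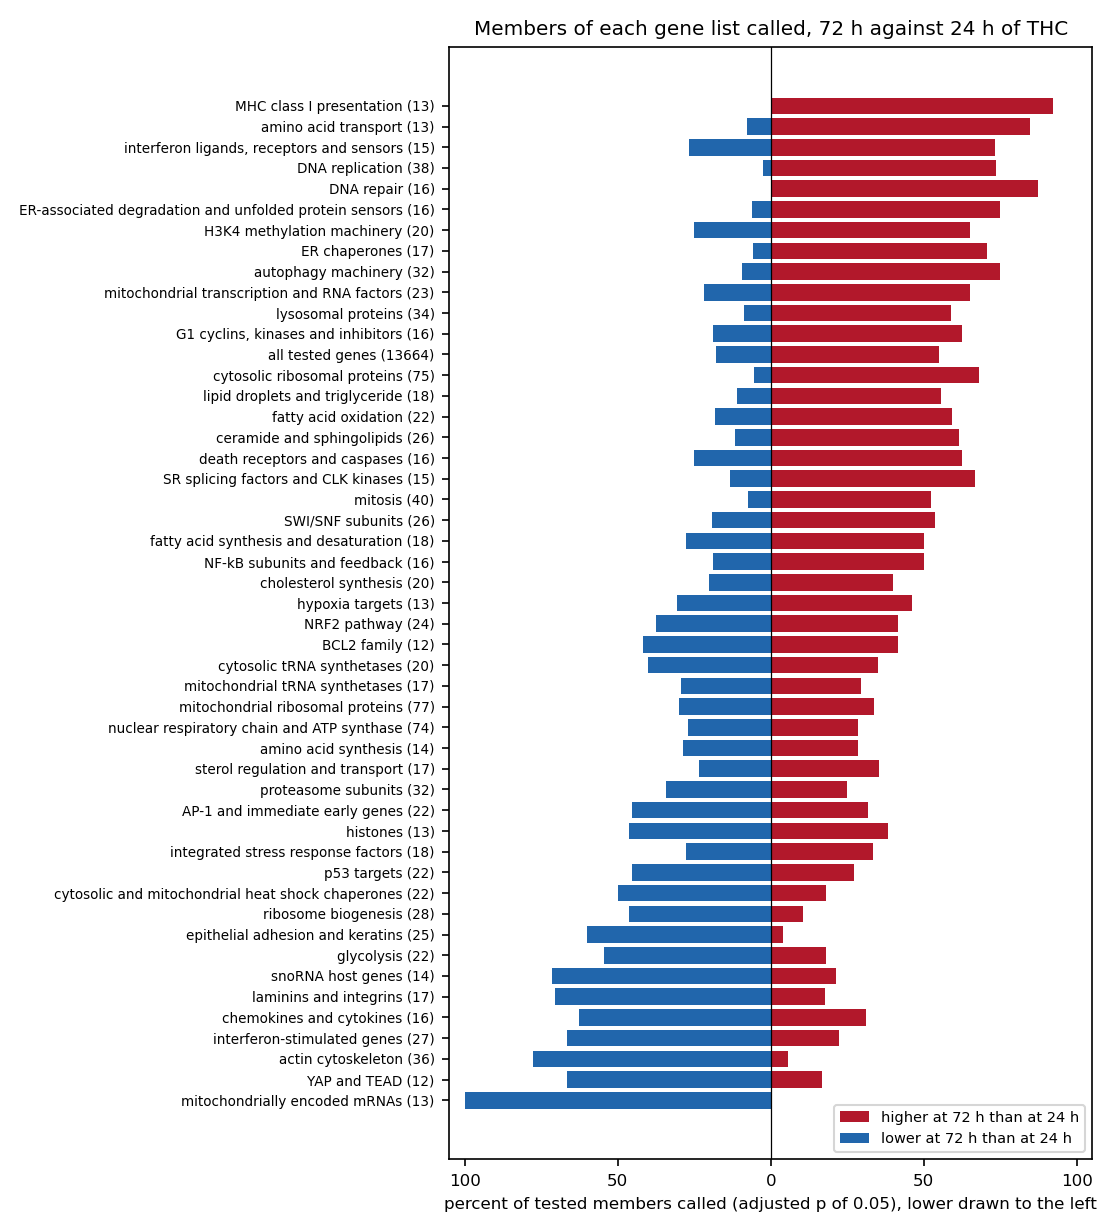
Percent of tested members called higher (right, red) or lower (left, blue) at 72 h than at 24 h of THC, for each gene list with at least 12 tested members. Lists are ordered by the median change, with the number tested in brackets, and shorter lists are not drawn. All tested genes have 55.0% higher and 17.8% lower; MHC class I presentation stands at the top and mitochondrially encoded mRNAs at the bottom.

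Cell death and redox regulators show several of the classes side by side. RIPK1, a kinase at the branch point between survival and death signals, had 17.7, 17.4 and 16.6 TPM at 72 h, against 5.31, 5.83 and 6.24 TPM at 24 h and 17.2 TPM in untreated cells, an early fall that had faded. KEAP1, which marks the antioxidant factor NRF2 for degradation, had 96.4, 88.6 and 84.8 TPM at 72 h, against 40.1, 40.3 and 42.2 TPM at 24 h. BCL2L1, which encodes the survival protein BCL-xL, was a late fall at 240, 223 and 235 TPM at 72 h, against 420, 402 and 406 TPM at 24 h, while its relative BCL2L2 was a late rise (0.89). After centring BCL2L1 was still a late fall, but BCL2L2 was in no class. In both genes the times did not overlap. Of 12 BCL2 family genes 5 were higher and 5 lower (3 and 7 after centring). BIRC3, an inhibitor of apoptosis, had risen early and was 0.62 higher at 72 h.

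Late rises included 2 of 34 lysosomal genes, both hydrolases. NEU1, a sialidase, had 95.7, 94.2 and 97.4 TPM at 72 h, against 44.8, 44.8 and 42.3 TPM at 24 h (1.11 ± 0.0448, adjusted p = 4.49e-08), and TPP1, a tripeptidyl peptidase, rose by 1.07. Of 34 lysosomal genes 20 were higher and 3 lower, but 13 and 15 after centring; 58.8% were higher against 55.0% of all tested genes. CPT1B, which brings fatty acids into mitochondria, rose by 1.06, and 13 of 22 fatty acid oxidation genes were higher and 4 lower (8 and 8 after centring), or 59.1% and 18.2%, near the share of all tested genes. Among late falls, ANGPTL4, a secreted inhibitor of lipoprotein lipase, had 0.943, 0.706 and 0.597 TPM at 72 h, against 16.6, 13.7 and 14.7 TPM at 24 h (-3.2 ± 0.0957, adjusted p = 9.84e-09). ANGPTL4 was in no class after centring. TKT, the transketolase of the pentose phosphate pathway, fell by 1.12. PLK2, a kinase of the stress and centriole cycles, had already fallen at 24 h and stood at 7.51, 6.79 and 8.11 TPM at 72 h, against 28.8, 34.7 and 38.0 TPM at 24 h.

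Among single genes, large falls were those of KRT17, a keratin of stressed epithelium (0.232, 0.294 and 0.146 TPM at 72 h, against 14.4, 13.6 and 13.4 TPM at 24 h), CST6, a cysteine protease inhibitor (-3.59), and IFNL1. KLHDC7B led the rises, with 12, 12.1 and 13.7 TPM at 72 h, against 0.535, 0.464 and 0.498 TPM at 24 h (3.18 ± 0.0864, adjusted p = 6.25e-09). TREM1, a receptor of myeloid cells, rose by 2.41, and PADI1, which converts arginine to citrulline, fell by 3.05 to 11.4, 12.4 and 12.5 TPM at 72 h, against 113, 108 and 102 TPM at 24 h. Antisense and pseudogene transcripts among the largest rises, such as BCAN-AS1 and CUTALP, are uncertain, since no source here says whether counting used strand.

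H3K4me3, the histone mark of active promoters, was mapped in 3 THC libraries and 3 untreated libraries, with no THC duration given. Of 241 late rises with a known start, 74.3% had a peak within 1000 bases in 3 of 3 THC libraries and 73.4% in 3 of 3 untreated libraries, against 92.1% and 91.9% of 10006 tested genes. Early rises that faded stood at 76.9% and 79.6%, early falls that faded at 94% and 94.4%. Late rises had a median level of 6.76 TPM, against 18 TPM over all tested genes, and its part in the result was not tested. Only 1 late rise had a peak in 3 of 3 THC libraries and in 0 of 3 untreated ones.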

How the data were processed

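RNA abundance was deposited by the authors as TPM in a table of 9 libraries. Per the submitters' processing notes the build was GRCh38 and the tools included Salmon and MACS2 2.2.7.1, with no roles given; no source here says whether strand was used. TPM does not retain depth, and no count model was fitted. Genes with a mean of at least 1 TPM over the 6 THC libraries were fitted with limma 3.58.1 in R 4.3.3 (log2 of TPM plus a pseudocount of 1, 3 groups of 3 libraries, eBayes with trend) and adjusted by Benjamini-Hochberg over 13664 genes. The fit was tested on simulated data. Early genes were called at 24 h against untreated with a log2 change of at least 1. The members and gene lists were chosen with earlier results of these data known, and the actin and tubulin lists after their genes' values were seen. Named genes are the 10 largest rises and falls, 5 leading genes of each class, up to 4 leading called genes of each list and a few fixed ones; genes named outside this rule were chosen after their values were seen. H3K4me3 peaks, deposited per library, were used for position, with the -log10 q values deposited by the authors serving as a stricter alternative. Other peak lists were not used. Motifs were searched in RefSeq promoters, 250 bases before to 50 after the start, for 10001 tested genes, with Python 3.11.15 and pandas 2.3.3. Figures used matplotlib 3.10.9. Alternatives changed the libraries fitted, the pseudocount, the filter, the scaling, the trend, the fold and the replicate block.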

Additional observations from a re-analysis of the deposited data

Results flagged for a closer look

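LINC00205, a long non-coding RNA, changed in opposite directions at 72 h and at 24 h against untreated cells. It had 22.8, 21.8 and 21.5 TPM at 72 h, against 2.24, 2.90 and 2.51 TPM at 24 h and 9.94 ± 0.768 TPM in untreated cells. It was 1.08 above untreated at 72 h and -1.63 from it at 24 h, on the log2(TPM + 1) scale, and the difference of 2.70 ± 0.0822 between the times was called (limma, adjusted p = 1.02e-08), in 3 of 3 libraries of each time. The comparisons share the untreated libraries. C1QTNF6 went the same way, with 15 TPM at 72 h, 2.92 TPM at 24 h and 6.88 TPM in untreated cells, as did 1 gene without a symbol. These genes moved about 2-fold in each direction. Counting smaller reversals too, 67 of the 635 early falls that faded were called higher than untreated at 72 h. Likewise 10 of the 202 early rises that faded were called lower than untreated.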

How the results depend on the processing

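The count of calls stayed between 9361 and 12225 under the alternatives that keep all 9 libraries and the filter of 1 TPM or none, was 7800 with a filter of 5 TPM and 9697 with the 6 THC libraries only. Leaving out each library gave 9369 to 9926 calls. Same-numbered 72 h and 24 h libraries deviated from their group means with correlations of 0, 0.12 and -0.19. The correlations were 0.05, -0.05 and 0.24 for 72 h and untreated libraries, and -0.12, -0.01 and -0.06 for 24 h and untreated libraries. No pairing by number was visible, but 3 libraries a group are too few to decide it. With a replicate block 9998 were called, and no named gene changed its call under it. Genes changed at least 2-fold numbered 2271 with a pseudocount of 0.1 (1922 of them higher) and 878 with a filter of 5 TPM (688 higher). Centring gave 4188 higher and 5173 lower, 479 and 583 at 2-fold, 424 early rises and 216 early falls that faded, and 217 late rises and 175 late falls. A pseudocount of 0.1 gave 1089 early falls that faded and 87 early rises that enlarged, and a filter of 5 TPM 420 early falls that faded and 230 late rises. At 1.5-fold in place of 2-fold the classes held 418, 1905, 1020, 1543, 215, 118, 1333 and 356 genes (rises then falls that faded, that persisted and that enlarged, then late). Of 270 named genes 259 kept direction and call under every alternative in which they were tested. With a filter of 5 TPM 237 of the 270 were tested. MKI67 (-0.21), VIM (-0.07) and FASN (-0.16) turned negative after centring. FASN did so also without 24 h replicate 2 (-0.08), and SCD turned positive without 72 h replicate 1 (0.05) or 24 h replicate 3 (0.02). With each library left out FASN ranged from -0.08 to 0.28 and SCD from -0.06 to 0.05. The cause was not tested. The number of replicates, 3 a group, limits the exact test to p = 0.1.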

Other observations

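Gene families differed in how they moved from 24 h to 72 h. Of 348 tested genes with a ZNF symbol, mostly zinc finger transcription factors, 255 were higher and 25 lower at 72 h (164 and 73 after centring), with a median of 0.50 against 0.26 for all genes. That is 73.3% higher against 55.0% of all tested genes. At least 2-fold higher were 10.1% of ZNF genes, near the 9.03% of all tested genes. Of 806 long non-coding RNA genes 540 were higher and 80 lower (385 and 156 after centring), with a median of 0.56, and 23.4% were at least 2-fold higher against 9.03% of all tested genes. Among the late rises 15.3% were long non-coding RNAs, against 6.39% of all annotated tested genes. Genes of low abundance also moved up whatever their family. At 1 to 3 TPM 58.6% were higher and 16.5% at least 2-fold higher, with a median of 0.48. At 3 to 10 TPM these were 63.2%, 16.7% and 0.44. The families were not matched for abundance, and its part in their changes was not tested.

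Receptors of THC were scarce. CNR1, the main cannabinoid receptor of the brain, was listed at 0 in all 9 libraries. CNR2, also a cannabinoid receptor, had means of 0.0107 TPM at 72 h, 0.0037 TPM at 24 h and 0.00863 TPM in untreated cells. GPR55, a receptor that also binds cannabinoids, had 1.56, 1.47 and 1.42 TPM at 72 h, against 0.346, 0.237 and 0.211 TPM at 24 h and 0.561 ± 0.0818 TPM in untreated cells; its mean fell under the filter, so it was not tested.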
